A study of Solanum lycopersicum with 8 samples.

Results

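Tight runs of accessible chromatin regions (ACRs) were examined in young tomato leaves. An ACR is a peak of the leaf ATAC-seq list, and a run is a row of ACRs in which each gap to the next is under 150 bp. The ACRs described here were chosen by their spacing: those on chromosomes 1 to 12 that lie in runs of at least 4. There were 4496 of them, in 993 runs, among 69143 chromosomal ACRs and 69690 ACRs in the whole list. They made up 6.50% of the chromosomal ACRs (95% exact binomial interval 6.32 to 6.69%). The other 64647 chromosomal ACRs, in runs of 1 to 3, were the comparison group.

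In ATAC-seq a transposase cuts DNA that is not wrapped in nucleosomes or otherwise covered, so that peaks mark open chromatin. In plants such regions lie mainly at gene starts and in distal regulatory sequence, where transcription factors bind. Nucleosomes and bound proteins can interrupt an open stretch, and a peak caller then lists it as several neighbouring peaks. The gaps inside a run are at most about as long as the DNA wrapped on a nucleosome. Whether the ACRs of a run are parts of an open domain or separate sites was not tested, since the list holds peaks and no signal between them.

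The leaf list stands for 6 biological replicates of terminal leaflets of cultivar M82, each of 1 g of tissue, with 100000 nuclei in a transposase reaction. The plants grew in a greenhouse with 16 h of light a day. The genotype label reads M82, although the growth text of the same samples names the anantha-e1546 mutant in that background, and leaflets contain several cell types that the assay does not separate. The series also holds Hi-C of anantha inflorescences (2 replicates), which was not used here. The list gives 1 value per ACR over all leaf replicates, so the spread between replicates and the read depth are unknown. All comparisons below are therefore descriptions with their spread over the 12 chromosomes, which are parts of 1 list and not replicates. No p-value is given, because width, score and q come from the same calls as the spacing that chose the runs. Binomial intervals cover counting error only. They treat ACRs as independent, whereas ACRs enter tight runs at least 4 at a time. Intervals for the share of ACRs in tight runs are therefore too narrow.

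Most ACRs stood alone, and long runs were rare. Of 53114 runs of any size, 41732 were single ACRs, 8252 held 2 ACRs and 2137 held 3. Among the tight runs, 653 held 4 ACRs, 222 held 5 and 78 held 6. A further 40 runs held 7 or more, with 306 ACRs in all, and the richest held 12. Among runs that had reached 1 to 6 ACRs, the share that went on to a further ACR was lowest after 1. It was 21.4% after 1 ACR (95% exact binomial interval 21.1 to 21.8%), 27.5% after 2 (26.7 to 28.3%) and 31.7% after 3 (30.1 to 33.4%). From 4 ACRs on it was 34.2% (31.3 to 37.3%), then 34.7% after 5 and 33.9% after 6, with intervals that overlap; only 40 runs reached 7, too few to read a level beyond. The step to a next close ACR was thus more frequent in rows that already held several than after a lone ACR. Run sizes come from the same spacing that the rule uses. The shares also pool sparse and dense windows, and tight runs are more frequent in dense ones, as given below. They are therefore a description, and whether steps depend on each other was not tested.

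**Figure D1:**
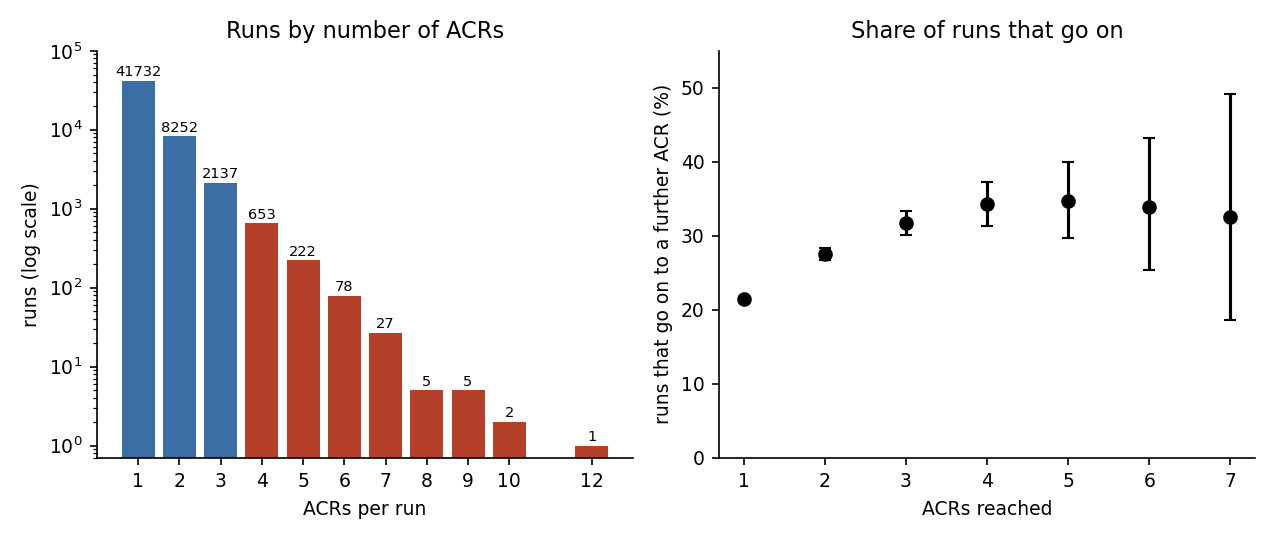
Left, number of runs (log scale) by ACRs per run, with runs of 4 or more in red. Right, percent of runs that go on to a further ACR once a given number is reached, with 95% exact binomial intervals; it goes from 21.4% after 1 ACR to 34.2% after 4, and the intervals from 4 to 7 ACRs overlap.

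Gaps inside the tight runs were short. The 3503 gaps ranged from 31 to 149 bp, with a median of 58 bp and quartiles of 41 and 87 bp. In runs of 2 or 3 the 12526 gaps had a median of 61 bp and quartiles of 42 and 93 bp. Gaps under 50 bp made up 39.1% in the tight runs (95% exact binomial interval 37.5 to 40.7%) and 36.2% in runs of 2 or 3 (35.4 to 37.1%). Over the whole list the number of gaps per 10 bp fell steeply from 3246 at 30 to 39 bp to 1009 at 90 to 99 bp and 412 at 140 to 149 bp. Beyond that it was level, with 362 gaps of 150 to 159 bp and 316 of 290 to 299 bp. The limit of 150 bp thus lies near the point where the counts level off. The same gaps chose the runs, so this is a description and no support for the limit. Of the tight runs, 78 had a widest gap of 140 to 149 bp. Joining only gaps under 140 bp gave 935 runs with 4226 ACRs, and joining gaps under 160 bp gave 1044 runs with 4747 ACRs.

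**Figure D2:**
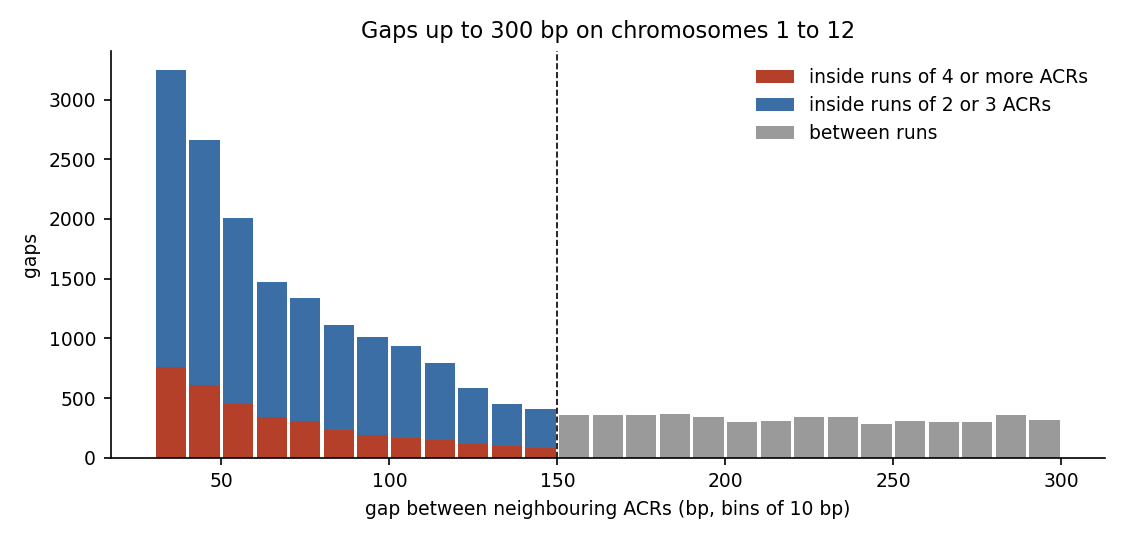
Number of gaps between neighbouring ACRs on chromosomes 1 to 12 in bins of 10 bp, up to 300 bp. Red and blue bars are gaps inside runs of 4 or more and of 2 or 3 ACRs, grey bars lie beyond the limit of 150 bp (dashed line); counts fall from 3246 in the first bin to 412 just under the limit and are level after it.

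Tight runs spanned several kilobases. The median span was 4855 bp, with quartiles of 3505 and 6962 bp and a range of 1436 to 51438 bp. ACRs filled a median of 95.4% of the span, from 82.2 to 99.4%, which the limit on gaps largely fixes: the median was 96.2% in runs of 2 and 95.4% in runs of 3. In all, the runs spanned 5.76 Mb, or 0.745% of the summed chromosome extents. Their ACRs covered 5.52 Mb, which was 8.87% of the 62.3 Mb covered by all chromosomal ACRs. Spans over 10 kb occurred in 100 runs and spans over 20 kb in 9. Single ACRs could be as long: 509 chromosomal ACRs were at least as wide as the median span, which 497 tight runs reached. Of these ACRs 111 (21.8%) were themselves inside tight runs, which hold 6.50% of all chromosomal ACRs. Lone ACRs made up 169 of the 509, beside 41732 of all 69143 chromosomal ACRs.

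ACRs of tight runs were wider than those of shorter runs. Their median width was 813 bp (quartiles 515 and 1402 bp), against 658 bp (454 and 1000 bp) in runs of 1 to 3. The difference of medians was 155 bp over the list and 162 ± 54.5 bp over chromosomes (SD, n = 12 chromosomes). The direction was the same on 12 of 12 chromosomes. Chromosome 1 had the smallest difference, 73.5 bp, and chromosome 8 the largest, 243 bp. In the interior alone the difference was 114 ± 103 bp (SD, n = 12 chromosomes). There it was positive on 11 of 12 chromosomes and -117 bp on chromosome 11. ACRs wider than 2000 bp made up 15.2% of the tight runs' ACRs and 6.19% of the others. Up to runs of 4 the median width grew at each step, from 633 bp for lone ACRs to 703 bp in pairs, 766 bp in runs of 3 and 805 bp in runs of 4. It was 795 bp in runs of 5, 890 bp in runs of 6 and 860 bp in runs of 7 or more. Runs of 3, just outside the limit, thus lay closer to runs of 4 than to lone ACRs.

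Score and q differed less. The score is the authors' per-peak value, used here only within this list. It has a ceiling of 1000, which 2194 ACRs of tight runs reached (48.8%; 95% exact binomial interval 47.3 to 50.3%), against 43.3% in runs of 1 to 3 (43.0 to 43.7%). The median score was 978 against 886. Over chromosomes the difference at the ceiling was 5.16 ± 3.76 percentage points (SD, n = 12 chromosomes). It was positive on 11 of 12 chromosomes and -2.43 on chromosome 5. The median −log10 q was 2.82 in tight runs and 2.56 in the others, a difference of 0.25 ± 0.16 over chromosomes (SD, n = 12 chromosomes). Chromosome 5 was again the exception, at -0.06, and chromosome 11 had the widest difference, at 0.50. In the interior alone, where tight runs are few, both differences varied in sign: 1.05 ± 12.3 percentage points at the ceiling and 0.13 ± 0.37 for −log10 q (SD, n = 12 chromosomes), each negative on 4 of 12 chromosomes. ACRs with a q above 0.05 were rarer in tight runs: there were 67 (1.49%), against 2029 of the others (3.14%), with the lower share in tight runs on 12 of 12 chromosomes. At the limit of 4 ACRs, however, score and −log10 q showed no step. Runs of 3 had 47.6% at the ceiling, a median score of 960 and a median −log10 q of 2.74. For runs of 4 these were 47.2%, 953.5 and 2.74, and for lone ACRs 41.9%, 862 and 2.49. Runs of 7 or more had 55.2%, 1000 and 3.09.

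**Figure D3:**
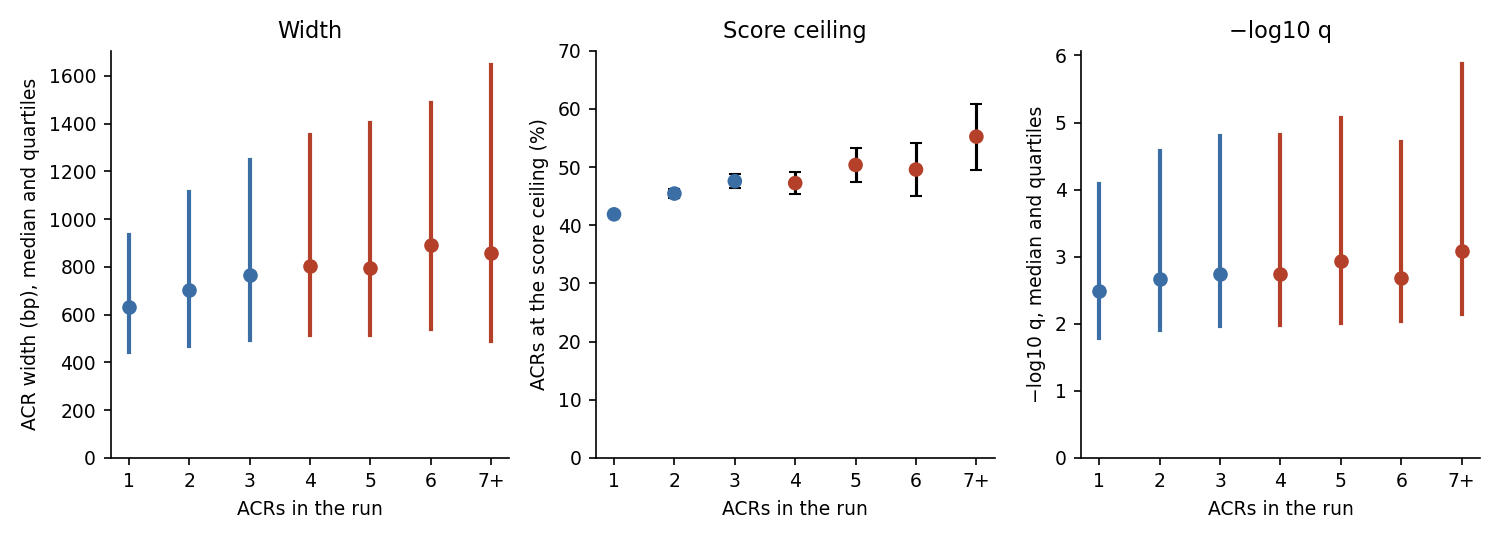
ACR width in bp (left), percent of ACRs at the score ceiling of 1000 (middle) and −log10 q (right) by number of ACRs in the run; blue marks runs of 1 to 3, red runs of 4 or more. Points are medians with quartiles as lines, or percents with 95% exact binomial intervals; median width goes from 633 bp for lone ACRs to 860 bp in runs of 7 or more, while the quartiles of all classes overlap.

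Much of the difference in q went with width, while the difference at the score ceiling remained among the widest ACRs. The chromosomal ACRs were put into 4 classes at the quartiles of their width. The widest class, 1022 bp and above, held 38.9% of the ACRs of tight runs and 24.0% of the others. Within that class the median −log10 q was 4.34 in tight runs and 4.29 in the others, and 65.0% against 59.1% reached the score ceiling. Among ACRs of 666 to 1021 bp the medians were 2.57 and 2.46, and 40.7% against 38.2% reached the ceiling. Among those of 458 to 665 bp they were 2.14 and 2.09, with 30.9% and 31.0% at the ceiling. In the narrowest class, 114 to 457 bp, the order was turned, with medians of 2.35 and 2.39 and 43.6% against 45.8% at the ceiling. Width and score are tied in the list, since score times width was at least 200 after division by 1000 for each of the 39170 ACRs below the ceiling.

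Inside a run the ACRs were unequal in width and strength. The widest ACR was a median of 4.69 times as wide as the narrowest of its run (range 1.20 to 108). It filled a median of 41.5% of the covered bases and at most 86.3%. Like values for sets of ACRs outside tight runs were not taken, so these are not shown to be traits of runs. Inner ACRs had a median width of 827 bp, against 779 bp for the first and 817 bp for the last of each run. The SDs of these medians over chromosomes were 66.5 to 86.1 bp. Such SDs describe each place by itself. Differences between places were not taken per chromosome, so a gradient from the edges of a run was not tested. The median −log10 q was 2.84 for inner, 2.78 for first and 2.77 for last ACRs, with SDs over chromosomes of 0.20 to 0.28. At the score ceiling stood 50.4% of inner, 46.6% of first and 46.9% of last ACRs, with SDs of 4.23 to 6.41 percentage points. The ACR with the strongest q had an inner place in 532 of 993 runs (53.6%), while inner places made up 55.8% of all places. It was also the widest ACR of its run in 491 runs (49.4%), for which no background share was taken. Of the runs, 801 held some ACRs at the ceiling and some below it, 94 held only ACRs at the ceiling and 98 held none. With 48.8% of these ACRs at the ceiling, most sets of 4 or more would be mixed anyway. The count of mixed runs is therefore no trait of runs. An ACR with q above 0.05 occurred in 63 runs, and no run consisted of such ACRs alone.

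Tight runs lay mainly near the chromosome ends, taken as the first and last 20% of each extent up to the last ACR. The ends held 825 of 993 runs (83.1%; 95% exact binomial interval 80.6 to 85.4%), at 2.67 runs per Mb against 0.362 in the interior. ACRs of all kinds were also denser there: 53732 of 69143 lay at the ends, which take up 40% of the extents. Of lone ACRs 75.4% lay at the ends, as did 83.2% of runs of 3, 80.9% of runs of 4 and 95% of runs of 7 or more. In tomato the distal arms are gene-rich euchromatin and the interiors are largely pericentromeric heterochromatin. Of the ACRs themselves, 83.7% of those in tight runs lay at the ends (82.6 to 84.8%), against 77.3% of those in runs of 1 to 3 (77.0 to 77.6%). The share of ACRs that belong to tight runs was 7.01% at the ends (6.79 to 7.23%) and 4.74% in the interior (4.41 to 5.09%), and was higher at the ends on 12 of 12 chromosomes, by 2.68 ± 1.45 percentage points (SD, n = 12 chromosomes). The gap between both parts was widest on chromosome 4, at 7.87% against 1.24%, where the interior held 2 runs. It was narrowest on chromosome 7, at 6.68% against 5.62%. ACR density differs between both parts as well. Among windows of like density, as given below, the ends had the higher share only in the densest class. With each extent cut into 10 equal parts, pooled over chromosomes, the share was 6.76% in part 1, 1.33% in part 5 and 8.29% in part 10. Part 10 alone held 423 runs (42.6%), with 1936 of their 4496 ACRs, beside 23358 of all 69143 chromosomal ACRs.

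**Figure D4:**
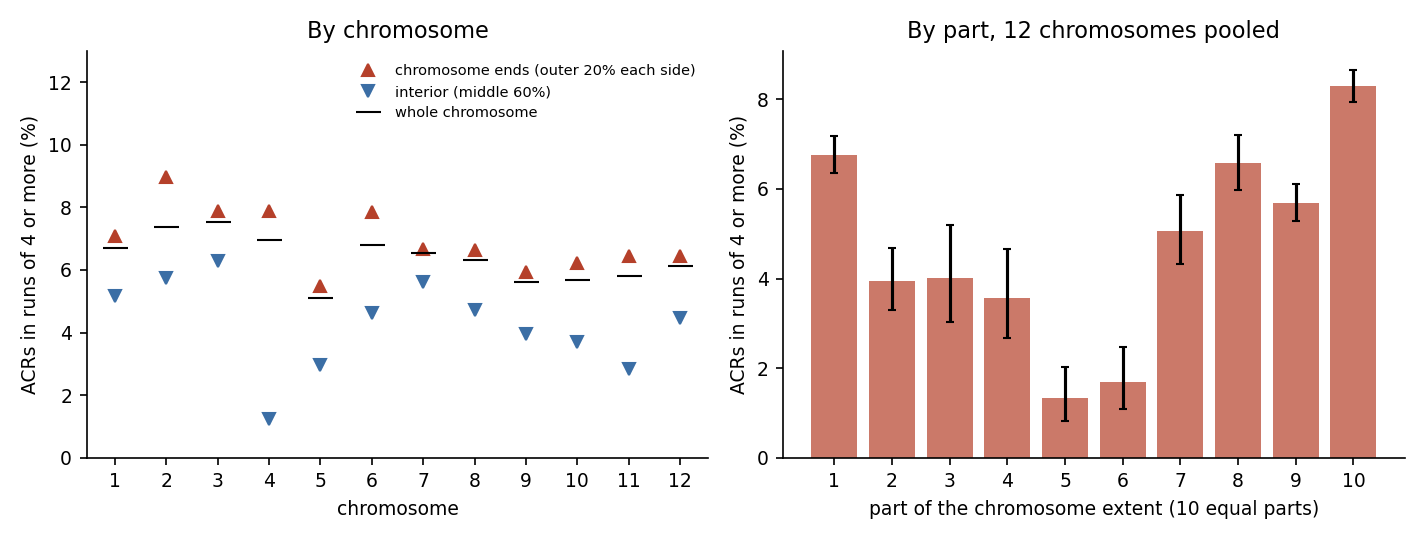
Percent of ACRs that lie in runs of 4 or more, left by chromosome for the ends, the interior and the whole, right by 10 equal parts of the chromosome extent pooled over 12 chromosomes with 95% exact binomial intervals. The ends lie above the interior on every chromosome, and the share dips to 1.33% in part 5.

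Chromosomes differed moderately in their share of ACRs in tight runs, which was 6.38 ± 0.743% (SD, n = 12 chromosomes). Chromosome 3 had the highest, at 7.54% with 115 runs, followed by chromosome 2 at 7.38% with 119 runs. Chromosome 5 had the lowest, at 5.12% with 54 runs, then chromosome 9 at 5.60% with 65 runs. The intervals of chromosome 3 (6.94 to 8.17%) and chromosome 5 (4.51 to 5.78%) did not overlap, whereas those of chromosomes 3 and 2 did. All ACRs of a run count together, so these intervals are too narrow, and the differences were not tested. Chromosome 1 held the most runs, 128, and chromosome 2 the most per Mb, 2.23. The ends of a chromosome were not alike. On chromosome 2 the share was 9.31% in the last 20%, and in the first 20%, toward the arm with the ribosomal DNA, 0 of 145 ACRs were in a tight run, which allows a share of up to 2.07%, counted as 3 of the total rather than as an exact binomial bound. Of these 145 ACRs, 32 were in runs of 2 or 3. On chromosome 9 the share in tight runs was 8.26% in the first 20% and 4.06% in the last. These shares at single ends are not adjusted for ACR density.

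The share also grew with local ACR density. Windows of 1 Mb with 1 to 49 ACRs had 2.83% of their ACRs in tight runs (95% exact binomial interval 2.49 to 3.20%), windows with 100 to 199 had 6.02% (5.53 to 6.55%) and windows with 300 or more had 8.29% (7.93 to 8.66%). Short gaps are more frequent where ACRs are dense, so this order follows in part from the rule. Within these density classes the ends did not have the higher share, except in the densest. In windows with 1 to 49 ACRs the ends had 2.76% and the interior 2.85%. It was 3.84% and 4.29% with 50 to 99 ACRs, 5.80% and 6.95% with 100 to 199, and 6.89% and 7.60% with 200 to 299, with overlapping intervals in each class. With 300 or more ACRs it was 8.41% at the ends (8.03 to 8.79%) and 6.30% in the interior (5.00 to 7.81%). Here too the intervals are too narrow for ACRs that enter in runs, and the difference was not tested. The chromosomes also differ in density, and their shares above are not adjusted for it. The difference in width, by contrast, was present in every density class. The medians were 746 bp in tight runs and 633 bp in the others in the sparsest windows, and 836 and 691 bp in the densest. For −log10 q the medians were 2.63 and 2.34 in the sparsest windows, 2.68 and 2.59 in windows with 100 to 199 ACRs, and 2.87 and 2.60 in the densest. The share at the score ceiling did not keep 1 direction: it was 44.2% in tight runs and 44.7% in the others in windows with 100 to 199 ACRs, and 49.9% and 43.8% in the densest.

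Beyond its edges a tight run also tended to have a nearer neighbour than runs of 1 to 3, most of which were lone ACRs. The gap from a run to the next ACR outside it had a median of 959 bp (quartiles 435 and 2505 bp), against 1625 bp (611 and 5521 bp) for runs of 1 to 3. By run size this median was 1752 bp for lone ACRs, 1278 bp in runs of 2 and 1071.5 bp in runs of 3. It was 971 bp in runs of 4, 885 bp in runs of 5, 1106.5 bp in runs of 6 and 975.5 bp in runs of 7 or more. Runs of 3 thus lay closer to runs of 4 than to lone ACRs. These gaps are not adjusted for ACR density, and tight runs are more frequent in dense windows. From one tight run to the next the median distance was 152 kb, with quartiles of 51.5 and 392 kb. Of the 981 distances, 81 were under 10 kb and 30 were over 5 Mb. The closest pair lay 197 bp apart on chromosome 4, on both sides of 53861698 to 53861894 (SL4.0). The widest stretch without a tight run was on chromosome 4 as well, from 19331883 to 49978310, 30.6 Mb, although it held 637 ACRs. It was followed by 30.1 Mb on chromosome 8, from 13839406 to 43890589 with 424 ACRs, and 29.7 Mb on chromosome 1, from 5030743 to 34717063 with 489 ACRs.

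The richest run lay on chromosome 4, from 61232643 to 61249207 (SL4.0), with 12 ACRs over 16.6 kb. In order of position its ACRs were 2819, 1262, 835, 1322, 1524, 470, 2375, 288, 1899, 356, 1323 and 1421 bp wide. Their −log10 q was 9.59, 7.44, 4.10, 7.58, 11.4, 5.95, 10.5, 2.42, 7.18, 2.14, 2.41 and 1.90. The first 7 and the ninth stood at the score ceiling, and the others scored 772, 993, 579 and 498. The 5 highest −log10 q values thus lay among the first 7 ACRs, and the last 3 were among the lowest of this run. The gaps between them were 33 to 136 bp.

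The 10 runs with the most ACRs, ties ordered by span, all lay at chromosome ends, 7 of them in the last of the 10 equal parts. After the first came 2 runs of 10 ACRs, on chromosome 3 from 59201935 to 59221377 and on chromosome 1 from 73467164 to 73486551, each 19.4 kb long. The widest ACR of the run on chromosome 1, of 8985 bp, had a −log10 q of 11.2, and the other 9 had values of 1.74 to 3.66. The run on chromosome 3 had its strongest ACR, at 7.72, beside its widest, of 7014 bp. Runs of 9 ACRs lay on chromosome 8 from 63819235 to 63830602 and from 54481601 to 54489790. Others of that size lay on chromosome 2 from 51658892 to 51668742 and on chromosome 3 from 61255173 to 61262977 and from 60458988 to 60465271. The shortest of these, the last named, packed its 9 ACRs into 6.28 kb, and 6 of them stood at the ceiling. The list was closed by runs of 8 ACRs on chromosome 4 from 61895645 to 61915807 and on chromosome 2 from 46278302 to 46291572. The strongest ACR of each of these 10 runs had a −log10 q of 6.38 to 11.4, and the weakest one of 1.48 to 2.16.

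**Figure D5:**
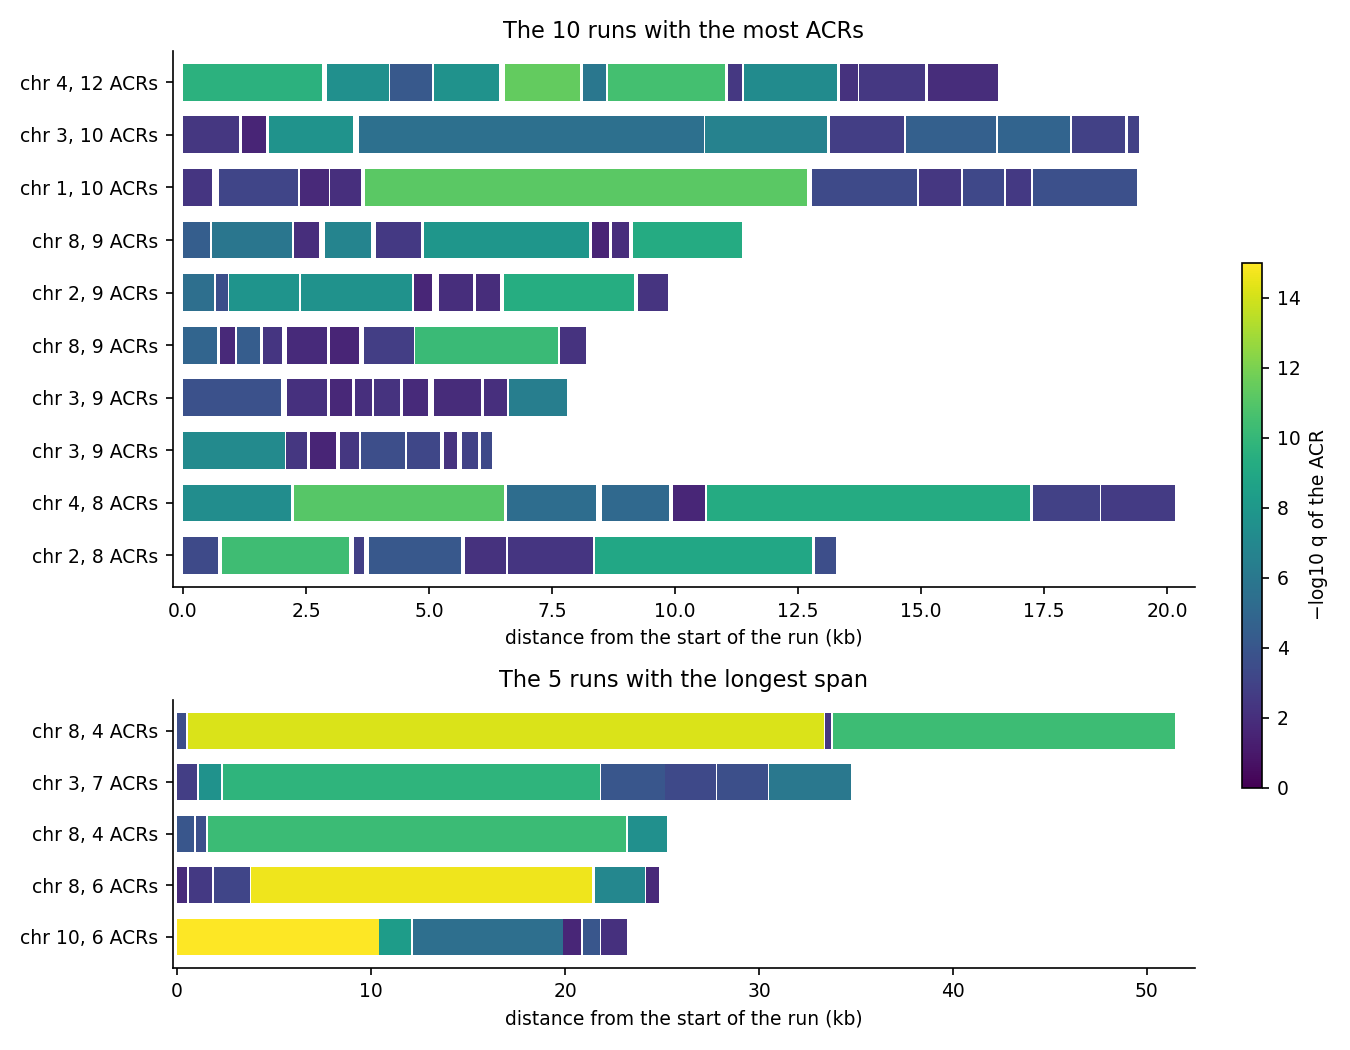
ACRs (blocks) of the 10 runs with the most ACRs (top) and of the 5 runs with the longest span (bottom), by distance in kb from the start of each run; colour gives −log10 q, and the shorter gaps may be too thin to see. The upper runs mix narrow and wide blocks, and each of the lower ones holds a block wider than 10 kb.

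Each of the 5 longest runs held an ACR wider than 10 kb, and their number of ACRs ranged from 4 to 7. The longest, on chromosome 8 from 9484323 to 9535760 (51.4 kb), held 4 ACRs of 434, 32772, 303 and 17614 bp, with −log10 q of 3.54, 14.1, 2.40 and 10.3. Only 2072 bp after it came the run from 9537833 to 9563086 (25.3 kb), with ACRs of 889, 538, 21555 and 2002 bp. Both narrow and wide ACRs of these runs stood at the score ceiling. The second longest, on chromosome 3 from 59222486 to 59257240 (34.8 kb), held 7 ACRs, the widest of 19431 bp. It began 1108 bp after the run of 10 ACRs named above, so that 17 ACRs lay within 55.3 kb. The others were on chromosome 8 from 59427768 to 59452587, with 6 ACRs over 24.8 kb, and on chromosome 10 from 60421219 to 60444433, with 6 ACRs over 23.2 kb. Of the 43 ACRs wider than 10 kb on chromosomes, 9 (20.9%) were spread over 8 tight runs. Tight runs hold 6.50% of all chromosomal ACRs. Another 16 of the 43 were lone ACRs, beside 41732 of all 69143 chromosomal ACRs. Copy number, which can widen peaks, was not measured.

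The strongest single ACR of a tight run was the second of 4 on chromosome 3, at 64707632 to 64719430, and its −log10 q was 16.7. Next came 19066543 to 19068752 on chromosome 3, at 16.1, the second of 5 ACRs, and 39449823 to 39452709 on chromosome 2, at 15.9, the last of 4. At 3612169 to 3614793 on chromosome 3 the value was 15.6, and at 60218559 to 60223757 on chromosome 9 it was 15.4. The highest value among ACRs of runs of 1 to 3 was 17.4. No gene is named for any position, since the gene table used here belongs to another assembly.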

How the data were processed

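The leaf list was deposited as 1 table of peaks for the 6 leaf ATAC-seq replicates, with start, end, a score and a −log10 q per peak. The score is the authors' whole-number value with a ceiling of 1000, and the −log10 q was read from the deposited peak names. Per the submitters' processing notes the tools named are Trimmomatic, BWA, Picard, SAMtools, bedtools, HiC-Pro 3.1.0 and Genrich 0.6; for their settings and roles nothing is given in these sources. A limit on peak area or a joining distance set by the authors would shape widths and the shortest gaps. Sequence names are those of SL4.0. Starts were taken as counted from 0 and are given 1-based; since the header comments name the GFF format, a shift of 1 bp is possible.

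Peaks were sorted by start and joined while the next start minus the previous end was under 150 bp. Medians, shares with exact binomial (Clopper-Pearson) 95% intervals and differences per chromosome were computed with Python 3.11.15, pandas 2.3.3, NumPy 2.4.6 and SciPy 1.17.1; plots used Matplotlib 3.10.9. A window or end holds a peak by its midpoint. The joining step was tested on simulated rows of known size. No samples were compared, and depth is unknown. The limits and groups were chosen with earlier results of these data known. Runs were named by rule: the 10 with the most ACRs, the 5 with the longest span, and the 5 ACRs with the strongest q; other positions were chosen after their values were seen. The Hi-C loop list, which names no assembly, and ACRs on unplaced sequence entered no comparison.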

Additional observations from a re-analysis of the deposited data

Results flagged for a closer look

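Unplaced sequence, which entered no comparison, also held tight runs: 7 runs of 4 or more ACRs, with 31 of its 547 ACRs (5.67%; 95% exact binomial interval 3.88 to 7.95%). They are given because they lie in data outside the comparisons, not because such a count was unforeseen. The richest held 5 ACRs and the longest spanned 16.6 kb. The interval includes the 6.50% found on chromosomes.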

How the results depend on the processing

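Of 27 values under the alternatives tried, 19 stayed within 1.5 times a count, within the binomial interval of a share or within 1 SD over chromosomes of a difference. None of the 12 differences among them turned its direction; the filter on score was run for the counts only. The counts depend on the limits by construction. Gaps under 100 bp gave 603 runs with 2670 ACRs, at least 5 ACRs per run gave 340 runs with 1884 ACRs, and ACRs at or above the median score gave 196 runs with 844 ACRs. The share of these ACRs at the ends, 83.7% as reported, was 87.7% with at least 5 ACRs per run, and with ends of 10% on each side 65.0%. Those narrower ends held 14597 (first) and 23358 (last) of all 69143 chromosomal ACRs. The differences stayed at 155 to 170 bp for width, 5.08 to 7.46 percentage points at the score ceiling and 0.245 to 0.337 for −log10 q. No paired analysis was possible because the list holds 1 value per ACR over all replicates, which also prevents leaving any of them out. Depth is unknown, so a missing ACR says nothing about the limit of detection.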

Other observations

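Neighbouring ACRs were weakly alike in strength, inside tight runs and elsewhere. Across the 3503 pairs of neighbours inside runs of 4 or more, the rank correlation of −log10 q was 0.20. It was 0.16 for 12526 pairs inside runs of 2 or 3, 0.15 for 20157 pairs at 150 to 999 bp, and 0.10 for 8807 pairs at least 10 kb apart. Widths of neighbours correlated with 0.09 inside tight runs and 0.17 inside runs of 2 or 3. The pairs share the same list and region, and an inner ACR enters 2 pairs, so these values are descriptions.

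Width and −log10 q went together more closely within tight runs than among the other ACRs. The rank correlation over ACRs was 0.44 for the 4496 ACRs of tight runs and 0.29 for the 64647 in runs of 1 to 3. This difference was not tested.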
